A study of Homo sapiens with 6 samples.

Results

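The YAP target genes described here are 10 genes often read as transcriptional outputs of the Hippo pathway: CCN1, CCN2, ANKRD1, AMOTL1, AMOTL2, AJUBA, AXL, LATS2, THBS1 and F3. They were taken by symbol, from probe sets (groups of short array probes that read a transcript) annotated with exactly 1 gene symbol. All 10 were on the array, with 27 probe sets between them, out of 19775 genes measured. The cells were HT29, an established human line from a colorectal adenocarcinoma, of which 300000 were seeded on 100 mm plates in F12 medium with 7% fetal bovine serum. The cocoa group (3 cultures) was exposed to 500 µg of a polyphenolic cocoa extract, named PCE in the labels, for 24 h, with no volume stated. The control group (3 cultures) is titled untreated, while the protocol names saline for 24 h. Each culture was read on 1 array, and the labels do not say whether cultures were grown on separate days, so the p-values reflect no more than the spread among these 6 cultures. The results come from 1 cell line, and since RNA of whole cultures was read, fewer cells expressing a gene and less of its RNA per cell cannot be told apart.

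In the Hippo pathway, the kinases STK3 and STK4 (MST2 and MST1) with the scaffold SAV1 activate LATS1 and LATS2, which phosphorylate the coactivators YAP1 and WWTR1 (TAZ) and keep them out of the nucleus. When the kinases are inactive, YAP1 and TAZ enter the nucleus, bind TEAD transcription factors and raise genes of matrix, adhesion and growth, together with LATS2 and the angiomotins, which act back on YAP1 as inhibitors. In the intestinal epithelium, YAP1 is known for its part in regeneration after injury and in colorectal tumours. Several of the 10 genes also respond to other inputs, such as serum response factor and AP-1.

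Each value below is an expression value, read as log2, that the authors centred for every probe set so that its 6 arrays have a median of 0. The log base is not named and was taken from the authors' processing method, and every fold rests on it. The data give differences between arrays and no levels. The order of the 10 genes by level, and whether any of them lay near background, are therefore unknown. For the same reason the epithelial identity of the cells could not be checked by level. Of 7 epithelial markers (EPCAM, KRT8, KRT18, KRT20, CDX2, VIL1 and CDH1) 0 passed limma's test and 1 had an unadjusted p below 0.05, with log2 differences of 0.017 to 0.23. Of 5 mesenchymal markers (VIM, COL1A1, COL1A2, ZEB1 and CDH2) 0 passed and 0 had an unadjusted p below 0.05, with differences of −0.084 to 0.10. Over all 19775 genes, 2666 passed limma's test and 5368 had an unadjusted p below 0.05. The signal of the 18S ribosomal RNA control probe sets was 3.31 for cocoa array 2 and 1.40 for cocoa array 3, above the −0.51 of cocoa array 1 and the control range of −1.12 to 0.51. The 5′ minus 3′ signal of the actin and GAPDH control probe sets was −0.26 for cocoa array 2 and −0.0525 for cocoa array 3, against 0.0090 to 0.033 in the other 4 arrays.

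Of the 10 genes 3 passed the test, in both directions, and differences between the genes were not tested. CCN2 and AXL fell with cocoa, AMOTL2 rose, and the other 7 did not pass the test (limma, Benjamini-Hochberg adjusted p below 0.05 over all 19775 genes). CCN2, a secreted matrix-associated growth regulator, was 1.88-fold lower, AXL, a receptor tyrosine kinase, 1.32-fold lower, and AMOTL2, an angiomotin that binds YAP1, 1.22-fold higher. Among all genes 13.5% passed the same test, 7.36% as higher and 6.12% as lower with cocoa. The log2 difference (cocoa minus control) was below 0 in 9 of the 10 genes and above 0 in AMOTL2, with a median of −0.13, beside −0.013 over all genes, of which 10591 lay below 0. The cocoa arrays lay wholly below the control arrays in 3 genes (CCN2, AXL and F3; 17% of all genes) and wholly above them in 1 (AMOTL2; 15.4% of all genes); in either direction 32.5% of all genes did not overlap.

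**Figure D1:**
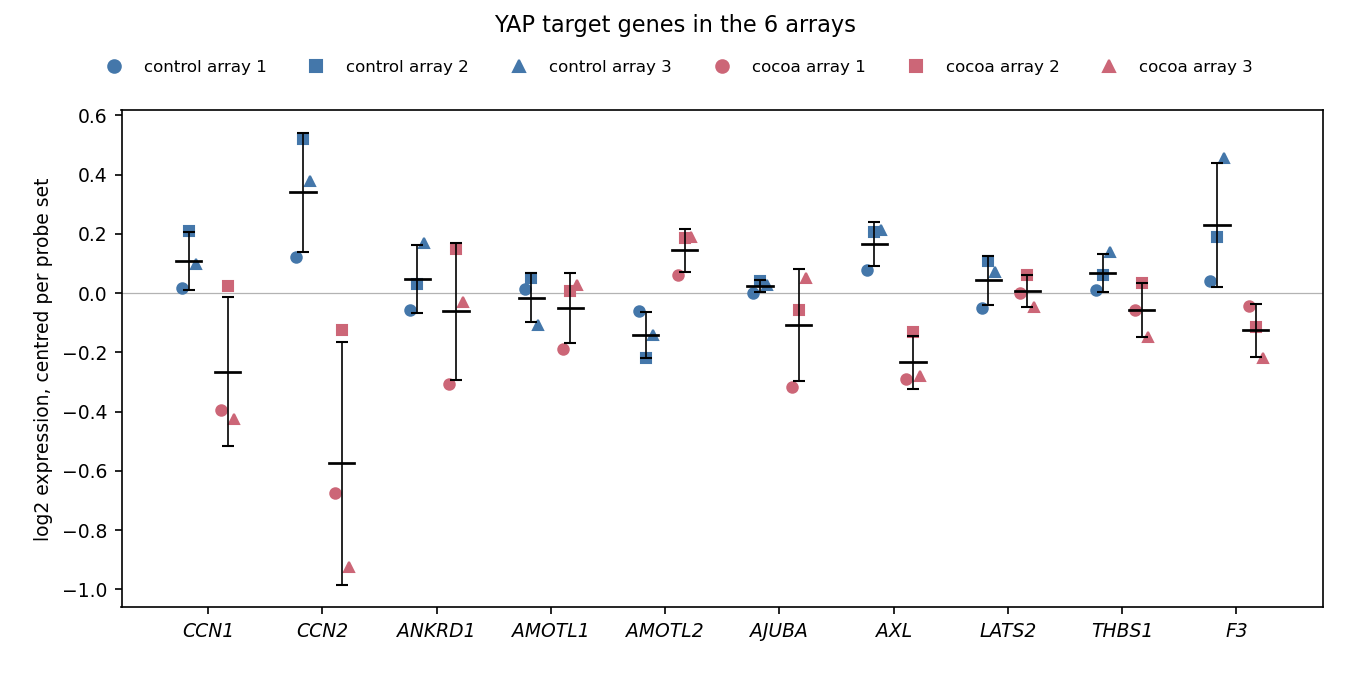
Centred log2 expression (vertical axis) of the 10 YAP target genes in each of the 6 arrays, with controls in blue and cocoa in red; symbols mark the array number, and black lines give the mean and SD of 3 arrays. CCN2 spans the widest range, from −0.92 to 0.52, and cocoa array 2 lies nearest to the controls in CCN1 and CCN2.

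TEAD factors bind DNA at the sequence GGAATG. The stretch before the start of 3 genes that passed the threshold and 1 that did not is given here, so that the letters can be read beside the values. Each is the 250 bases before a start annotated by RefSeq, from build GRCh38.p14, written 5′ to 3′ on the gene's own strand, with GGAATG or its reverse complement CATTCC in capitals. AMOTL2 and AXL have 2 annotated starts each, and the window that holds a match is shown.
CCN2, chr6:131951373-131951622, minus strand: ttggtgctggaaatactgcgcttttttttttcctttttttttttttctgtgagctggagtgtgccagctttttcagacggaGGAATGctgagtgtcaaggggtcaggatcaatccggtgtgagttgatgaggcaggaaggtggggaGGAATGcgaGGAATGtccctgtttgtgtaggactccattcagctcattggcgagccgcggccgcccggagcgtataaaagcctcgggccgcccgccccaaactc
AXL, chr19:41226505-41226754, plus strand: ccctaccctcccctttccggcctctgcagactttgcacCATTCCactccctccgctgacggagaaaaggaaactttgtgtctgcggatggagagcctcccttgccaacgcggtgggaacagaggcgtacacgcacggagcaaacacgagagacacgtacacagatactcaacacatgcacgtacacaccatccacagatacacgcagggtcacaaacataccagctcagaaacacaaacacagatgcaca
AMOTL2, chr3:134374448-134374697, minus strand: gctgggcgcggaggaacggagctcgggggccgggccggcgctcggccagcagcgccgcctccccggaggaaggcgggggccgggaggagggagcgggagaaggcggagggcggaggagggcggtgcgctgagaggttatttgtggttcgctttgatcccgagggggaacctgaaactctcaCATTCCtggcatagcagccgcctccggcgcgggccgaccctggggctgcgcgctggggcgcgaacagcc
ANKRD1, chr10:90921088-90921337, minus strand: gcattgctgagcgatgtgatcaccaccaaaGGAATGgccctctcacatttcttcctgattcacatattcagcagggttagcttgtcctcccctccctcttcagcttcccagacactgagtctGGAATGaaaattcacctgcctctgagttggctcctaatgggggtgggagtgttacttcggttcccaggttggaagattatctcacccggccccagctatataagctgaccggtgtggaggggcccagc

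The CCN2 window held the motif 3 times, with first bases 169, 104 and 95 bases before the start, and ANKRD1 held it at 220 and 128 bases. AMOTL2 had 1 copy (69 bases) and AXL 1 (212 bases, before the second of its starts in genome order and not before the first). AJUBA (59 bases) and THBS1 (46 bases) had 1 each. AJUBA too has 2 annotated starts, and in AJUBA and AMOTL2 the motif stood before the first in genome order and not before the second. CCN2 (lower), AMOTL2 (higher) and ANKRD1 (not past the threshold) thus all carried these letters. The RefSeq table matched 9 of the 10 genes, CCN1 not among them, with 12 windows, of which 6 held the motif on either strand, beside 11.9% of 35116 windows of all genes. The AP-1 motif TGAGTCA, or TGACTCA on the other strand, stood in 1 window, that of F3 (210 bases before the start), beside 4.2% of all windows. The CArG box of serum response factor stood in 0 of the 12 windows, beside 1.16% of all. A match of letters is no measurement of binding, and the window is short.

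CCN1, CCN2 and THBS1 encode secreted proteins of the extracellular matrix that bind integrins and other surface receptors. CCN2 (connective tissue growth factor) read 0.12, 0.52 and 0.38 in control arrays 1, 2 and 3, and −0.68, −0.12 and −0.92 in cocoa arrays 1, 2 and 3. The groups did not overlap, but the gap between control array 1 and cocoa array 2 was small beside the spread within the cocoa group. The group values were 0.34 ± 0.20 (SD, n = 3) in controls and −0.57 ± 0.41 (SD, n = 3) with cocoa. The log2 difference was −0.91 (SE 0.18; 95% confidence interval −1.33 to −0.50; limma adjusted p = 0.0113), and its rank among the 19775 genes, counted from the lowest, was 16. Without control array 2 the difference was −0.82 and the adjusted p 0.0509 (0.0020 to 0.0509 over all alternatives).

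CCN1 (CYR61), the closest relative of CCN2 among the 10, read 0.019, 0.21 and 0.097 in the control arrays and −0.40, 0.025 and −0.43 in cocoa arrays 1, 2 and 3. Cocoa arrays 1 and 3 lay below every control, and cocoa array 2 lay within the control range. The log2 difference of −0.37 (SE 0.12; 95% interval −0.64 to −0.11) did not pass the threshold (limma adjusted p = 0.0687). Without cocoa array 2 it was −0.52 (adjusted p = 0.0076). With the 18S signal of each array as a covariate it was −0.57 (adjusted p = 0.0174). Of 15 alternatives, 5 put CCN1 past the threshold, and its adjusted p ran from 0.0076 to 0.218 over all of them. Of the 6 fits without 1 array, only 1 did so, that without cocoa array 2. Both CCN1 probe sets were on the same side of 0, at −0.42 and −0.33.

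THBS1 (thrombospondin-1), which binds CD47 and CD36 and restrains angiogenesis, had a gene value of −0.13 (SE 0.072; 95% interval −0.29 to 0.037; limma adjusted p = 0.315). Its 7 probe sets were spread widely, from −0.63 to 0.25, with 4 below 0 and 3 above. Probe set 201109_s_at fell by 0.63 on the log2 scale (SE 0.16; limma adjusted p over 54613 probe sets 0.049). It read 0.11, 0.22 and 0.48 in the control arrays and −0.11, −0.25 and −0.70 in the cocoa arrays, with no overlap. The other end of the range was 239336_at at 0.25 (SE 0.10; adjusted p = 0.187). The gene value therefore averages probe sets that differ in sign, and the difference between them was not tested. Of the 27 probe sets of the 10 genes, 3 passed and all 3 were lower with cocoa (CCN2, AXL and THBS1), beside 7.98% of all probe sets, 3.3% lower and 4.68% higher.

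**Figure D2:**
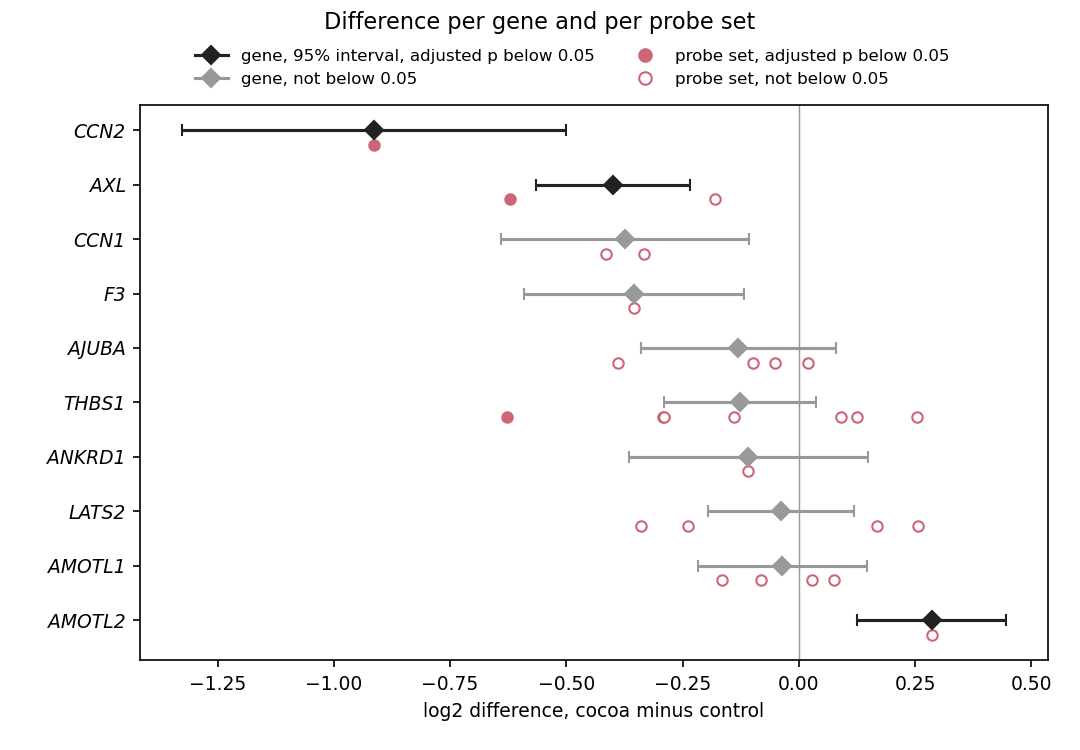
Log2 difference, cocoa minus control (horizontal axis), of each YAP target gene with its 95% confidence interval (diamonds) and of each of its probe sets (circles under it, filled where the adjusted p is below 0.05). The 7 THBS1 probe sets run from −0.63 to 0.25 and the 4 LATS2 probe sets from −0.34 to 0.26, while CCN2, F3, ANKRD1 and AMOTL2 have 1 probe set each.

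AXL and F3 act at the cell surface. AXL, a receptor tyrosine kinase of the TYRO3, AXL and MERTK family, read 0.080, 0.21 and 0.21 in the control arrays and −0.29, −0.13 and −0.28 in the cocoa arrays. All cocoa arrays lay below all controls, at 0.17 ± 0.075 against −0.23 ± 0.090 (SD, n = 3 each). The log2 difference was −0.40 (SE 0.074; 95% interval −0.57 to −0.23; limma adjusted p = 0.0077), and its adjusted p stayed below the threshold in all 6 fits that left out 1 array (0.0101 to 0.0436). The gene value averages 2 probe sets, with −0.62 (SE 0.11; adjusted p over probe sets 0.0143) for 202686_s_at and −0.18 (SE 0.092; adjusted p = 0.310) for 202685_s_at, and the difference between them was not tested. Both have names ending in _s_at, so their probes may also match other transcripts.

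F3, tissue factor, is the surface receptor that starts blood coagulation with factor VII. It read 0.042, 0.19 and 0.46 in the control arrays and −0.042, −0.11 and −0.22 in the cocoa arrays. The groups did not overlap, and the spread was larger among controls (SD 0.21) than with cocoa (SD 0.090). The log2 difference of −0.35 (SE 0.10; 95% interval −0.59 to −0.12) did not pass the threshold (limma adjusted p = 0.0546). Without control array 1, the lowest of the controls, it was −0.45 with an adjusted p of 0.0346, and 0.0346 to 0.194 was the range over all alternatives.

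Among ligands, receptors and inhibitors of these surface and matrix proteins, 2 of 10 genes rose and 1 fell, beside 7.36% higher and 6.12% lower among all genes, with a list median of 0.10. GAS6, the ligand of AXL, rose by 0.36 (SE 0.085; limma adjusted p = 0.0219). The GAS6 probe sets lay at 0.31 and 0.42, and neither passed alone (adjusted p over probe sets 0.0582 and 0.0630). PROS1 (protein S), an anticoagulant that is known as a ligand of TYRO3 and MERTK, rose by 0.53 (SE 0.068; adjusted p = 0.0014). PROS1 read −0.26 to −0.21 in the controls and 0.21 to 0.39 with cocoa, on 1 probe set with an _s_at name. The call of GAS6 was lost without control array 2 (adjusted p = 0.0876), without control array 3 (0.0709) and with the 18S covariate (0.146). TFPI, the inhibitor of tissue factor, fell by 0.30 (SE 0.078; adjusted p = 0.0363), with probe sets from −0.77 to 0.059. Its adjusted p was above 0.05 in 5 of the 6 fits without 1 array (up to 0.114 without control array 2; 0.0194 without cocoa array 1, where the call was kept) and 0.213 with the 18S covariate.

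AMOTL1, AMOTL2, LATS2 and AJUBA belong to the Hippo pathway itself. AMOTL2, which holds YAP1 at cell junctions, read −0.062, −0.22 and −0.14 in the control arrays and 0.062, 0.19 and 0.19 in the cocoa arrays. Every cocoa array lay above every control, at 0.15 ± 0.072 against −0.14 ± 0.078 (SD, n = 3 each). The log2 difference was 0.29 (SE 0.071; 95% interval 0.12 to 0.45; limma adjusted p = 0.0284). The same values among all 54613 probe sets gave an adjusted p of 0.0706. The call was lost without control array 2 (0.129), control array 3 (0.0798), cocoa array 2 (0.0809) or cocoa array 3 (0.0872), and with the 18S covariate (0.138), while the difference stayed between 0.25 and 0.33 over all alternatives.

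AMOTL1, its relative, had a log2 difference of −0.035 (SE 0.081; 95% interval −0.22 to 0.15), with 2 probe sets below 0 and 2 above. LATS2, the kinase that phosphorylates YAP1, had a difference of −0.038 (SE 0.070; 95% interval −0.20 to 0.12). Behind that value its 4 probe sets lay at −0.34, −0.24, 0.17 and 0.26, and none of them passed (adjusted p 0.141 to 0.278). In 227013_at the groups did not overlap, with −0.15 to −0.038 in controls and 0.038 to 0.11 with cocoa, and in 223379_s_at they did not overlap in the opposite direction, with 0.029 to 0.22 in controls and −0.15 to −0.029 with cocoa. Groups that did not overlap were found in 27.6% of all probe sets. AJUBA, a LIM-domain adaptor that binds LATS kinases at junctions, had a difference of −0.13 (SE 0.093; 95% interval −0.34 to 0.079). Its controls lay close together (SD 0.019), and cocoa arrays ran from −0.32 to 0.051. The difference was −0.026 without cocoa array 1 and −0.21 without cocoa array 3, and the 4 probe sets lay between −0.39 and 0.019.

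ANKRD1, an ankyrin repeat protein of nucleus and sarcomere, is among the most used YAP readouts. It read −0.058, 0.030 and 0.17 in the control arrays and −0.31, 0.15 and −0.030 in the cocoa arrays, so that the groups overlapped. The log2 difference was −0.11 (SE 0.11; 95% interval −0.37 to 0.15; limma adjusted p = 0.617). Its groups thus overlapped where those of CCN2 did not, and the difference between the 2 genes was not tested.

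The cocoa arrays differed from each other in some of these genes. Cocoa array 2, the one with the highest 18S signal, was the highest of the 3 cocoa arrays in 6 of the 10 genes, cocoa array 3 in 3 and cocoa array 1 in 1. Among all genes cocoa array 2 was the highest in 37.6%, cocoa array 3 in 30.9% and cocoa array 1 in 31.5%. Averaged over the 10 genes, cocoa array 1 read −0.22, cocoa array 2 read 0.0043 and cocoa array 3 read −0.18. The medians of the arrays over all probe sets lay between −0.013 and 0.0072. The spread within the cocoa group was largest for CCN2 (SD 0.41), CCN1 (0.25) and ANKRD1 (0.23), beside a median of 0.096 over all genes. AJUBA (0.19) and AMOTL1 (0.12) were also above that median. THBS1 (0.091), AXL (0.090), F3 (0.090), AMOTL2 (0.072) and LATS2 (0.054) were below it. With the 18S covariate CCN2 had a difference of −1.20 (adjusted p = 0.0080) and AXL one of −0.48 (0.0143).

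**Figure D3:**
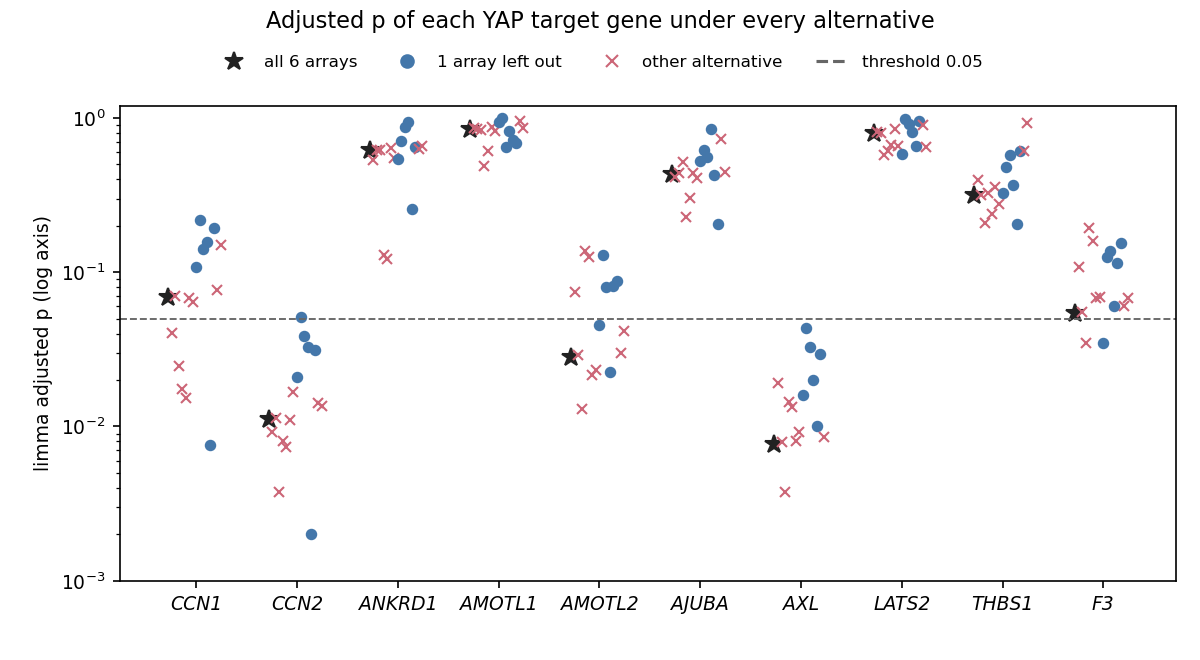
Adjusted p (vertical axis, log scale) of each YAP target gene with all 6 arrays (stars), without 1 array (blue circles) and under the other processing alternatives (red crosses), with the threshold of 0.05 dashed. AXL stays below the line throughout (highest 0.0436), CCN2 crosses it once (0.0509), and AMOTL2, CCN1 and F3 lie on both sides.

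Of YAP1, TAZ and their DNA-binding partners, 1 of 9 genes fell, 0 rose (0 with an unadjusted p below 0.05 and a positive difference in limma) and 8 did not pass, a share near the 13.5% of all genes, with a list median of −0.081. At that unadjusted cut 2644 of all 19775 genes were higher and 2724 lower. The gene that fell was TEAD4, one of the 4 TEAD factors. TEAD4 read 0.40, 0.31 and 0.26 in the control arrays and −0.30, −0.27 and −0.29 in the cocoa arrays. These groups lay far apart beside their spread, with a log2 difference of −0.61 (SE 0.065; limma adjusted p = 0.00059). Both TEAD4 probe sets passed (−0.76 and −0.45), and its adjusted p was at most 0.0061 over all alternatives. TEAD1 (−0.16, SE 0.12), TEAD2 (−0.22, SE 0.11) and TEAD3 (0.13, SE 0.10) did not pass. Without cocoa array 1 TEAD1 had a difference of −0.30 (adjusted p = 0.0396), and with the 18S covariate TEAD3 had a difference of −0.0058. YAP1 had a difference of −0.081 (SE 0.060; 95% interval −0.22 to 0.055; adjusted p = 0.455). WWTR1 had one of −0.16 (SE 0.095; adjusted p = 0.328) over 3 probe sets that disagreed: 202132_at lay at 0.014, 202134_s_at at 0.11, and 202133_at fell by 0.61 (SE 0.098; adjusted p over probe sets 0.0088). From the probe sets with plain _at names alone WWTR1 had a difference of −0.30 (adjusted p = 0.0410). From all 3 probe sets but without cocoa array 1 it was −0.072.

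Of 17 Hippo kinases and upstream regulators, 2 rose, 2 fell and 13 did not pass, beside 7.36% higher and 6.12% lower among all genes, with a list median of −0.079. NF2, the membrane-linked tumour suppressor merlin, fell by 0.44 (SE 0.081; limma adjusted p = 0.0075). All 8 of its probe sets were below 0 (−0.76 to −0.098), and 3 of them passed. From its probe sets with plain _at names alone, NF2 had a difference of −0.25 (adjusted p = 0.137), and the 18S covariate gave −0.38 (adjusted p = 0.0619). SAV1, the scaffold of the MST kinases, fell by 0.35 (SE 0.065; adjusted p = 0.0082), and the 18S covariate took its adjusted p to 0.0645. The SAV1 probe sets ran from −0.62 to −0.067. All have _x_at or _s_at names, so SAV1 was not fitted from plain _at names. FRMD6, a FERM-domain protein that acts upstream of the kinases, rose by 0.37 (SE 0.070; adjusted p = 0.0086), and its adjusted p was at most 0.0484 over all alternatives. The FRMD6 probe sets lay at 0.35 and 0.40, and neither passed alone (adjusted p over probe sets 0.101 and 0.116). TAOK3, of the TAO kinases that phosphorylate MST kinases, rose by 0.35 (SE 0.072; adjusted p = 0.0123), a call lost without control array 1 (0.0526), without control array 2 (0.0534) and with the 18S covariate (0.0921).

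**Figure D4:**
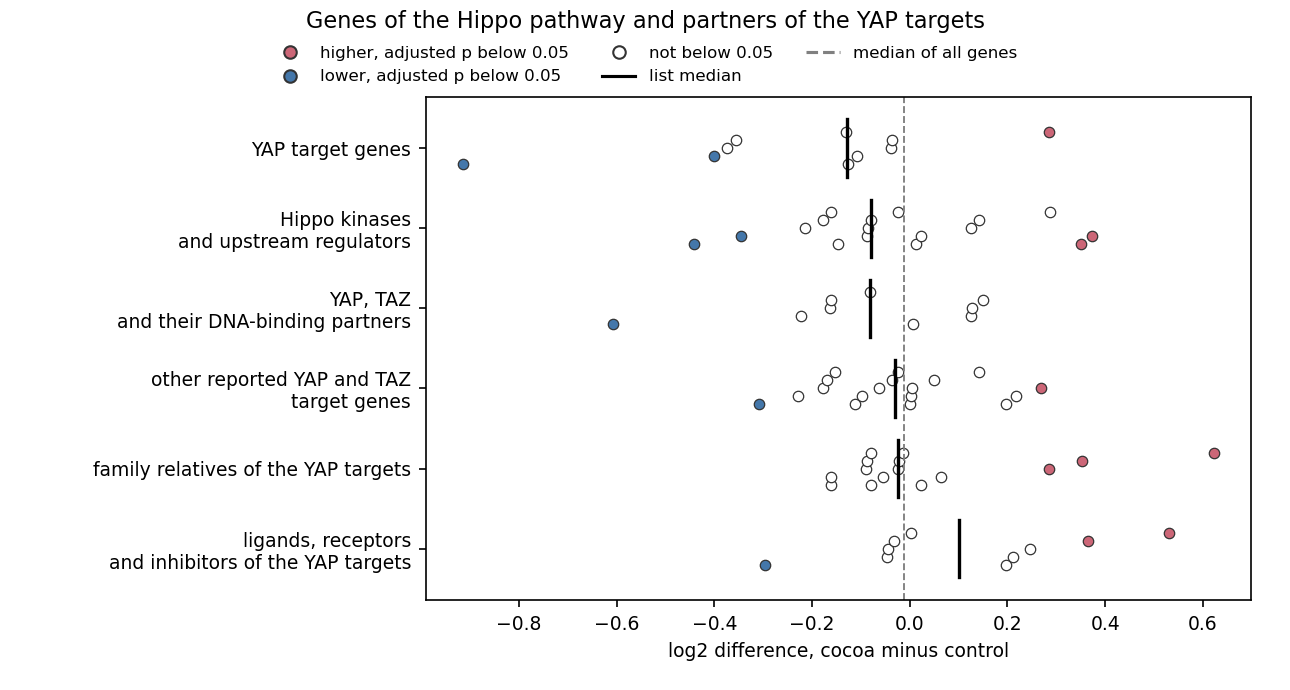
Log2 difference, cocoa minus control (horizontal axis), of single genes (circles) in the YAP target list and the 5 lists of pathway genes, filled red where higher and blue where lower at an adjusted p below 0.05. Black bars are list medians, from −0.13 for the YAP targets to 0.10 for ligands, receptors and inhibitors, and the dashed line is the median of all genes (−0.013).

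Of 18 other reported YAP and TAZ targets that were measured, 1 rose, 1 fell and 16 did not pass, a share near the 13.5% of all genes that passed, with a list median of −0.030. TGFB2, a secreted growth factor, fell by 0.31 (SE 0.068; limma adjusted p = 0.0169), with all 5 probe sets below 0 and none past the threshold alone. Its call was lost without control array 1 (0.0620), without control array 2 (0.0789), without cocoa array 3 (0.0580) and with the 18S covariate (0.106) or the 5′ to 3′ covariate (0.0807). From the probe sets with plain _at names alone TGFB2 had a difference of −0.20 (0.0893). TGM2, which crosslinks proteins of the matrix, rose by 0.27 (SE 0.065; adjusted p = 0.0249). That value rests on probe set 201042_at (0.77; adjusted p over probe sets 0.0028), beside 0.053 to 0.13 in the other 3, and the median of the probe sets gave TGM2 a difference of 0.17 (adjusted p = 0.140). From the probe sets with plain _at names alone it was 0.41 (adjusted p = 0.0140). The TGM2 call was kept without cocoa array 1 (0.0339) and lost without any other single array (0.0533 to 0.0914), and under either covariate (18S 0.125, 5′ to 3′ 0.0957).

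Of 15 family relatives of the 10 genes, 3 rose, 0 fell (0 at an unadjusted p below 0.05 in limma) and 12 did not pass, beside 7.36% higher and 6.12% lower among all genes, with a list median of −0.025. At that unadjusted cut 2724 of all 19775 genes were lower and 2644 higher. As the list was made of relatives, each of the 3 that rose shares a family with a gene described above. THBS3, a thrombospondin of bone and cartilage matrix, rose by 0.62 (SE 0.11; adjusted p = 0.0057), on 1 probe set that read −0.55 to −0.16 in controls and 0.16 to 0.35 with cocoa. MERTK, the relative of AXL that clears dying cells, rose by 0.35 (SE 0.062; adjusted p = 0.0061), with −0.18 to −0.094 in controls and 0.19 to 0.23 with cocoa. AXL and MERTK thus changed in opposite directions. The rise of MERTK came from 2 probe sets with the suffix _s_at (0.46 and 0.56), while the third, 211912_at, had a difference of 0.046 (adjusted p over probe sets 0.864). CCN3, a member of the family of CCN1 and CCN2, rose by 0.28 (SE 0.069; adjusted p = 0.0249), a call kept without cocoa array 2 (0.0190) and lost without any other single array (0.0524 to 0.0880) and with the 18S covariate (0.0540). Its 2 probe sets lay at 0.48 (214321_at; adjusted p over probe sets 0.0574) and 0.093 (204501_at; 0.685).

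The 3 genes whose 6 values lay nearest to those of CCN2, by root mean square difference over the 6 arrays, were AGR3 (0.21), FOSL1 (0.21) and PCSK5 (0.23), out of all other genes. FOSL1, a subunit of AP-1, read 0.45 to 0.47 in the controls and −0.56, −0.45 and −0.78 in cocoa arrays 1, 2 and 3. AGR3, a secretory-pathway protein of the disulfide isomerase family, read 0.20 to 0.38 in the controls and −0.27, −0.20 and −0.83 with cocoa (log2 difference −0.70; limma adjusted p = 0.0140, and 0.0516 without control array 3). PCSK5, a proprotein convertase, read 0.34 to 0.62 and −0.37, −0.40 and −0.70. In FOSL1 and AGR3, as in CCN2, cocoa array 3 was lowest and cocoa array 2 highest of the cocoa arrays. The measure uses the same 6 arrays as the comparison, and is given as a description.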

How the data were processed

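Total RNA of 6 HT29 cultures was biotin-labelled and read on Affymetrix U133 Plus 2.0 arrays, per the labels' protocols. The authors made the deposited log2 values with RMA (background correction, quantile normalisation, probe summary), per the submitters' processing notes; the sources used here give neither its version nor any filter. In the deposited table of 54675 probe sets every row is centred on its median (the largest absolute row median is 5.0e-07), so levels and signal over background are unknown. The number of arrays limits the precision.

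The 62 control probe sets were left out, and 41091 of 54613 probe sets with 1 symbol in the platform annotation were averaged into 19775 genes. Cocoa minus control was fitted with limma 3.58.1 (lmFit, eBayes) in R 4.3.3 over all genes, and separately over all probe sets. The p-values were adjusted by Benjamini and Hochberg's method, with the threshold at 0.05. The steps were also run on simulated data with independent normal errors. Recovery in that run is not reported here, so it does not speak to power at the sizes found. An SE is the moderated one. The 10 genes and the gene lists were chosen with earlier results of these data known. Named genes were the 10, YAP1, WWTR1 and TEAD1 to TEAD4, up to 4 genes past the threshold per list, and the 3 nearest to the gene with the largest difference. NUAK2 and AREG were not analysed here. Motifs were searched on both strands with Python 3.11.15.

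The alternatives tried were array weights, a robust prior, a replicate block, quantile normalisation, median centring, the median of probe sets, probe sets without the suffixes _s_at, _x_at and _a_at, covariates from the 18S and the 5′ minus 3′ actin and GAPDH control probe sets, a threshold of 0.01, and leaving out each array.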

Additional observations from a re-analysis of the deposited data

How the results depend on the processing

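The count of 3 YAP target genes past the threshold was 5 with array weights (CCN1 and F3 joining), 1 at a threshold of 0.01 (AXL), and 1 to 4 in the fits without 1 array, lowest without control array 2 (AXL alone). With the 18S or the 5′ to 3′ covariate it was 3, but CCN1 took the place of AMOTL2. The count of 3 probe sets was 5 with array weights, 1 without the suffixes for several transcripts, 0 at a threshold of 0.01 in limma (13 at an unadjusted p below 0.05), and 0 to 4 without 1 array, with 0 without control array 2 or 3 (7 and 8 at an unadjusted p below 0.05) and 1 without cocoa array 3. Counts over all probe sets were not made under these alternatives or at the unadjusted cut, so these probe-set counts have no background. Over all genes 2666 passed, against 3301 with array weights, 1152 at 0.01, 1411 with the 5′ to 3′ covariate and 1103 with the 18S one. Without 1 array 1315 to 2881 genes passed, lowest without control array 2, and 1623 passed without control array 1.

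The sign turned in 4 values, none of them past the threshold: ANKRD1 (0.013; −0.21 to 0.013 without 1 array) and AMOTL1 (0.033; −0.082 to 0.033 without 1 array), both without cocoa array 1, THBS1 (0.017) without the suffixes for several transcripts, and TEAD3 (−0.0058) with the 18S covariate. Of 149 values of the 10 genes under alternatives, 131 kept their direction and side of the threshold. That count pools called genes with genes far from the threshold. The call was kept in 14 of 15 alternatives for CCN2, in 14 of 14 for AXL and in 8 of 15 for AMOTL2. Without those suffixes AXL has no probe set and was not fitted. The causes were not tested.

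Deviations of arrays with the same replicate number correlated at −0.12, −0.0089 and −0.0031 across genes, beside −0.11 to 0.12 for different numbers. These values give no sign that the numbers pair the cultures, but with 3 arrays per group they cannot exclude it. With the replicate block 3 YAP target genes passed (CCN1, adjusted p = 0.0406, CCN2 and AXL), AMOTL2 did not (0.0743), and 2 probe sets and 1947 genes passed.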
